A study of Mus musculus with 20 samples.

Results

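Hcar2, Gpr84, Gpr183, Cnr2 and P2ry6 encode G protein-coupled receptors through which microglia and other myeloid cells sense metabolites: niacin and ketone bodies, medium-chain fatty acids, oxysterols, endocannabinoids and nucleotides. They were taken by symbol from the deposited count table, where each had 1 entry, and make up 5 of its 43346 annotated genes. They were selected on their function with the measured levels and fold changes of these same libraries already known, so their levels and their differences with age are given as a description.

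RNA was sequenced from cortex of 20 mouse libraries in 4 groups of 5. Every group carried the 5xFAD transgenes (5xFAD+/-), human amyloid precursor protein and presenilin transgenes with familial Alzheimer's disease mutations, driven in neurons by the Thy1 promoter, so no group was free of the amyloid model. The control groups at 3 and at 10 months were 5xFAD+/-; Abca7WT/WT. The knockin (KI) groups at 3 and at 10 months carried a substitution in Abca7, a lipid transporter gene, which the protocol names A693S and the series title A696S. Per the protocol the knockin animals were heterozygous (5xFAD+/-; Abca7WT/KI) or homozygous (5xFAD+/-; Abca7KI/KI), without a label that tells the 2 apart for a given library. The animals were described as male littermates. Whether every library came from its own animal is not stated, and the p-values therefore speak of the spread among libraries.

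Hcar2 is a Gi-coupled receptor for niacin and for the ketone body beta-hydroxybutyrate. Gpr84 binds medium-chain fatty acids, and Cnr2 is the cannabinoid receptor of immune cells, while Cnr1 is the abundant neuronal one. Gpr183 guides immune cells along gradients of an oxysterol that Ch25h and Cyp7b1 make and Hsd3b7 clears. P2ry6 responds to UDP released by damaged cells and promotes phagocytosis by microglia.

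Library totals ran from 42896149 to 57447015 counts, and 19623 genes had enough counts to be tested. The summed neuron markers of cortex ran from 6244 to 7143 CPM (each count divided by its library's total and brought to a common scale). Choroid plexus markers ran from 28.3 to 2241 CPM, with a median of 40.2 in KI at 10 months against 825 to 1060 in the other groups. Thalamus markers, which mark tissue next to cortex, ran from 142 to 319 CPM at 3 months and from 128 to 161 CPM at 10 months. Most of that sum was Rora (group means 85.1 to 108 CPM) and Slc17a6 (33.5 to 51.0 CPM), so it mainly follows these genes. KI replicate 5 at 10 months went against the description of the animals as male: it had 54206 counts of Xist, a transcript of the inactive X chromosome, where no other library had more than 218, and 1 count of the Y-linked Ddx3y, where the others had 2382 to 3661. KI replicate 3 at 3 months stood apart on the second principal component, at 58.8. Abca7 was at 28.2 ± 1.38 and 25.4 ± 4.87 CPM in control and KI at 3 months, and at 27.03 ± 4.33 and 24.1 ± 4.08 CPM at 10 months (SD, n = 5), a level that does not check for the substitution.

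All 5 receptor genes passed the filter on low counts and are annotated as protein coding, with coordinates in mm10. Hcar2 (ENSMUSG00000045502) lies on chromosome 5 from 123863570 to 123865516 on the minus strand, and Gpr84 (ENSMUSG00000063234) on chromosome 15 from 103308236 to 103310438 on the minus strand. Gpr183 (ENSMUSG00000051212) lies on chromosome 14 from 121952331 to 121965193 on the minus strand. Cnr2 (ENSMUSG00000062585) lies on chromosome 4 from 135895394 to 135920207 on the plus strand, and P2ry6 (ENSMUSG00000048779) on chromosome 7 from 100937638 to 100964391 on the minus strand. Of the 5 genes, Gpr183 overlapped another annotated gene: it lies within Ubac2 (chromosome 14, 121878606 to 122021034), a ubiquitin-associated domain gene of the opposite strand. None of the 2887 exonic bases of Gpr183 fell in an exon of Ubac2 in GENCODE M21 (0 bases). The strand setting of the counting is not given in the sources used here, and without strand, intronic reads of Ubac2 could not be told from Gpr183. Ubac2 was at 28.3 ± 1.06, 28.3 ± 3.54, 27.8 ± 3.69 and 26.7 ± 2.09 CPM in control and KI at 3 months and control and KI at 10 months.

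RefSeq promoters (GRCm38.p6, the assembly behind mm10) were found for 3 of the 5 receptors. No entry was found for Hcar2 and P2ry6. For the other 3 the 250 bases before a start site are shown: Gpr84 (chr15:103310439-103310688, minus strand), Gpr183 (chr14:121965194-121965443, minus strand) and the upstream start of Cnr2 (chr4:135894939-135895188, plus strand). Capitals mark AGGAAGT, the core bound by PU.1, the lineage factor of microglia, and by other ETS factors.
Gpr84: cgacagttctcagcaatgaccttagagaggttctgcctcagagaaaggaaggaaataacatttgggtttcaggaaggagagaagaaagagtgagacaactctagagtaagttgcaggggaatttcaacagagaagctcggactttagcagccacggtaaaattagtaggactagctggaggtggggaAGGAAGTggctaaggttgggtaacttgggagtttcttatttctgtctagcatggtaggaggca
Gpr183: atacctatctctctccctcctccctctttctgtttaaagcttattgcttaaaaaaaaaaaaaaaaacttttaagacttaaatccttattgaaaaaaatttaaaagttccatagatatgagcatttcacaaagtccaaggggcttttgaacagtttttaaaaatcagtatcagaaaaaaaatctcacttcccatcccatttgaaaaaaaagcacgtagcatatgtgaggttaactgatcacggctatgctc
Cnr2: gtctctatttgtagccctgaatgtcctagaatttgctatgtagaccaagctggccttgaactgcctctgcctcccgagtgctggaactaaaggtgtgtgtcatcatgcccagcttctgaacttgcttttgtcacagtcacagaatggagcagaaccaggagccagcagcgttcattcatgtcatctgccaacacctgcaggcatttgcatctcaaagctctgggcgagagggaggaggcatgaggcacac
The core was searched on both strands of 4 receptor promoters, counting a further start site of Cnr2, and lay in 1 of them, at base -63 from the Gpr84 start. It occurred in 7.69% of all 32851 promoters of that length. The NF-kappaB motif, TGANTCA for AP-1, TTCNNNGAA for STAT factors and GTGACGTCA for CREB lay in 0 of the 4, and in 1.21%, 6.75%, 7.02% and 1.14% of all promoters. With 1 match in all, none overlapped another, and a match or its absence describes the letters of this window only.

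All 5 receptors were higher at 10 than at 3 months in both genotypes, and in each gene every 10 month library lay above every 3 month library. The ratio of mean CPM between ages was largest for Hcar2, at 22.4 in control and 39.0 in KI, and smallest for P2ry6, at 1.80 and 2.03. Of all 19623 genes, 3.72% were called higher at 10 months in control and 5.66% in KI (edgeR quasi-likelihood test, Benjamini-Hochberg adjusted p under 0.05), 0.357% and 2.41% were called lower, and all 5 receptors were among the higher ones, as their choice with these results in view would give. The share of all genes whose 10 month libraries all lay above their 3 month libraries was 4.56% in control and 5.34% in KI. In bulk cortex, more microglia and more RNA per microglial cell cannot be told apart. Thalamus markers were lower at 10 months, with 1 of 7 called lower in control and 6 of 7 in KI and median log2 fold changes of -0.68 and -1.50. Among them Shox2 had up to 203 counts in control and 387 in KI at 3 months and at most 3 and 4 at 10 months. The part of this difference in the receptor values was not tested.

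Hcar2 was close to undetected at 3 months. Control libraries at 3 months held 16, 5, 1, 3 and 2 counts, or 0.288, 0.105, 0.0225, 0.0603 and 0.0457 CPM, and KI libraries held 5, 8, 5, 0 and 3 counts, or 0.118, 0.164, 0.101, 0 and 0.0522 CPM. The count of 0 allows a level of up to 0.0600 CPM (3 counts), for counting error only. At 10 months the control libraries were at 2.67, 2.15, 1.86, 2.17 and 2.80 CPM, and the KI libraries at 2.63, 2.71, 6.01, 3.70 and 1.94 CPM. The lowest 10 month library was thus above the highest 3 month one in both genotypes, while KI at 10 months ranged far more widely than control, with its highest value in replicate 5, the library with the high Xist count. The log2 fold change with age was 4.37 ± 0.45 (SE) in control and 5.28 ± 0.47 in KI. Leaving out control replicate 6, which held 16 of the Hcar2 counts in control at 3 months, moved the control value to 5.24.

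Gpr84, which mediates inflammatory responses of myeloid cells, was at 0.683, 0.399, 0.629, 0.542 and 0.434 CPM in control and 0.449, 0.390, 0.282, 0.427 and 0.609 CPM in KI at 3 months. At 10 months it was at 1.87, 1.69, 1.71, 3.03 and 2.75 CPM in control and 2.51, 1.43, 2.36, 2.48 and 1.97 CPM in KI. Control replicates 9 and 10 were the high ones at 10 months, and the genotypes overlapped at both ages. The log2 fold change with age was 2.03 ± 0.23 in control and 2.30 ± 0.23 in KI.

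Cnr2 was low at 3 months, at 0.395, 0.315, 0.427, 0.301 and 0.206 CPM in control and 0.284, 0.411, 0.181, 0.325 and 0.122 CPM in KI. At 10 months it was at 0.943, 0.984, 1.57, 1.11 and 1.72 CPM in control and 1.57, 1.15, 1.52, 1.82 and 1.21 CPM in KI. Each 10 month library held 43 to 100 counts, against 7 to 22 at 3 months. The log2 fold change with age was 1.93 ± 0.26 in control and 2.46 ± 0.27 in KI.

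Gpr183 was already measurable at 3 months, at 1.71, 1.78, 1.48, 1.43 and 1.33 CPM in control and 1.63, 1.46, 1.43, 1.10 and 1.36 CPM in KI. At 10 months it was at 2.23, 3.82, 2.78, 4.11 and 3.99 CPM in control and 4.24, 3.89, 4.25, 3.97 and 4.04 CPM in KI. The KI libraries were tightly grouped, at 4.08 ± 0.160 CPM, whereas control replicates 6 and 8 were low and the control group spread to 3.39 ± 0.835 CPM. The log2 fold change with age was 1.13 ± 0.15 in control and 1.55 ± 0.15 in KI.

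P2ry6 changed least with age. It was at 1.28, 1.80, 1.68, 1.59 and 1.23 CPM in control and 1.49, 1.17, 1.73, 1.504 and 1.67 CPM in KI at 3 months. At 10 months it was at 2.31, 2.40, 2.87, 3.41 and 2.68 CPM in control and 3.04, 3.00, 3.26, 2.81 and 3.28 CPM in KI. As for Gpr183 in control (2.23 above 1.78 CPM), the gap between ages was narrow for P2ry6 in control. Its lowest 10 month library at 2.31 CPM stood above the highest 3 month one at 1.80 CPM. The log2 fold change with age was 0.85 ± 0.14 in control and 1.02 ± 0.14 in KI.

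**Figure D1:**
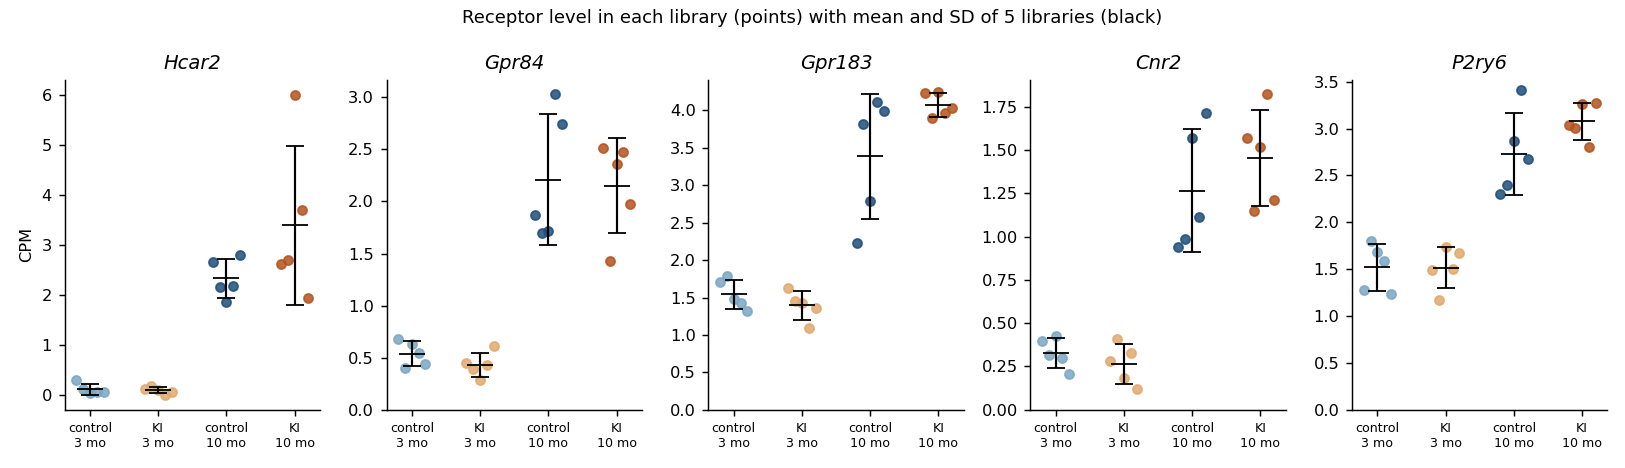
CPM of each receptor (vertical axes, linear and separate for each gene) in the 20 libraries by group, with black bars for the mean and SD of 5 libraries. All 10 month points lie above all 3 month points of the same genotype, and the highest Hcar2 point, 6.01 CPM, is KI replicate 5 at 10 months.

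Per length of gene, the order of the receptors differed between ages. Levels are given as RPKM, the CPM per kilobase of the length in the table. At 3 months P2ry6 led with 0.783 ± 0.130 in control and 0.781 ± 0.113 in KI, followed by Gpr183 (0.525 ± 0.0656 and 0.474 ± 0.0660) and Gpr84 (0.347 ± 0.0787 and 0.278 ± 0.0762). Cnr2 (0.0826 ± 0.0218 and 0.0664 ± 0.0288) and Hcar2 (0.0535 ± 0.0549 and 0.0447 ± 0.0324) were the lowest, and of neighbours in the order only this pair overlapped within 1 SD. At 10 months in control, Gpr84 (1.43 ± 0.408), P2ry6 (1.41 ± 0.226), Hcar2 (1.196 ± 0.202) and Gpr183 (1.15 ± 0.284) did not differ from their neighbours beyond the SD. In KI at 10 months the order was Hcar2 (1.74 ± 0.818), P2ry6 (1.59 ± 0.101), Gpr84 (1.39 ± 0.295) and Gpr183 (1.39 ± 0.0545), again within 1 SD of each neighbour. Cnr2 stayed apart below them, at 0.318 ± 0.0890 in control and 0.365 ± 0.0693 in KI. Hcar2 thus went from the lowest place per length at 3 months to a level that overlapped those of P2ry6 and Gpr84 at 10 months.

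Chosen reference genes of microglia were also higher at 10 months, so each receptor was set against a reference made of them. The reference was the mean log2 CPM of 10 genes, among them Csf1r, Cx3cr1, Itgam, Aif1 and Spi1. Where 3.72% of all tested genes in control and 5.66% in KI were called higher at 10 months, all 10 reference genes were. Their mean was 2.38-fold higher at 10 months in control and 2.47-fold higher in KI, with no overlap between ages. Relative to this reference, the difference in log2 level between 10 and 3 months was 3.52 in control and 4.22 in KI for Hcar2, and 0.75 and 1.00 for Gpr84, with no overlap between ages in either genotype. For Cnr2 it was 0.66 in control, where the ages overlapped, and 1.204 in KI, where they did not. For Gpr183 it was -0.16 and 0.25, and for P2ry6 -0.41 and -0.28, with overlap in both genotypes. The share of all genes without overlap on this relative scale was not computed. Without KI replicate 6 at 3 months, whose Hcar2 count of 0 leaves its log2 value to the prior count, the KI value for Hcar2 was 3.53. Hcar2 therefore differed more with age than the reference genes did, and P2ry6 less, although the sign for P2ry6 turned with the other references tried.

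The sign for P2ry6 in both genotypes and that for Gpr183 in control depended on the reference chosen. Against Csf1r alone, the receptor that microglia need to survive, P2ry6 differed by 0.04 in control and 0.20 in KI, and Gpr183 by 0.29 and 0.72. Against 8 homeostatic microglia markers, such as Tmem119 and P2ry12, P2ry6 differed by 0.39 and 0.38 and Gpr183 by 0.64 and 0.90. Hcar2, Gpr84 and Cnr2, and Gpr183 in KI, stayed above 0 against all of these references.

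**Figure D2:**
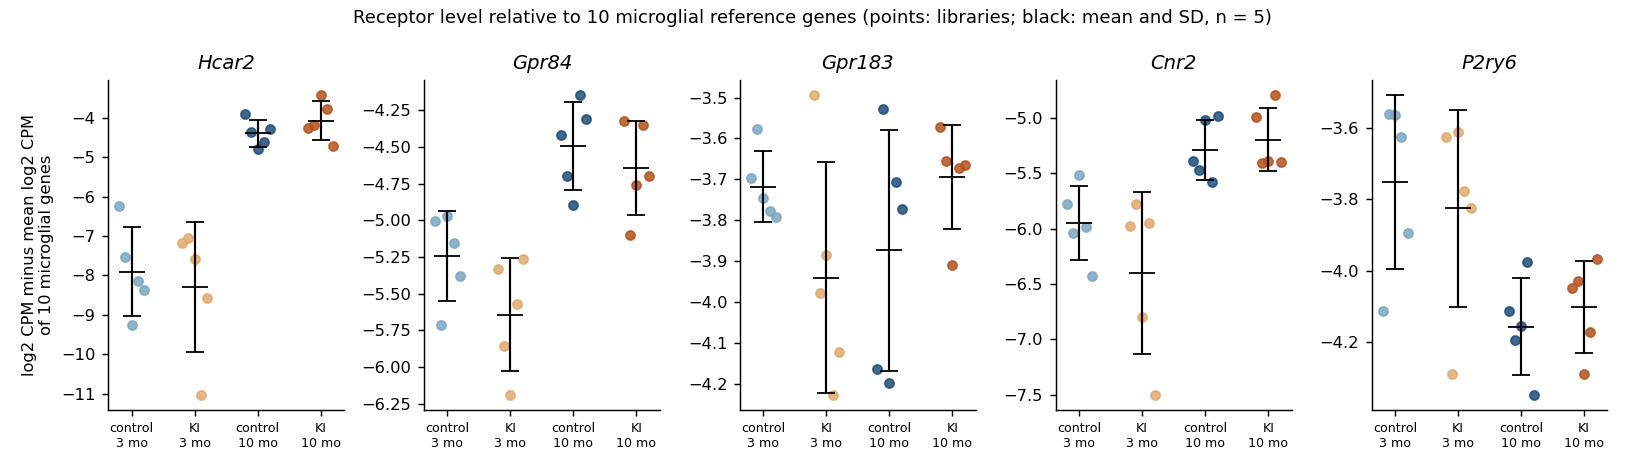
Log2 CPM of each receptor minus the mean log2 CPM of 10 microglial genes (vertical axes, separate for each gene) in the 20 libraries, with black bars for the mean and SD of 5 libraries. Hcar2 and Gpr84 have all 10 month points above the 3 month points of the same genotype, while P2ry6 means are lower at 10 months.

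With the reference added to the model as a covariate, a fit added after seeing the data, no receptor was called in either age comparison. The covariate itself separated the ages without overlap, and the fit called 0 of 19623 genes in each (edgeR; 1162 in control and 1237 in KI at an unadjusted p under 0.05). The log2 difference with age then became 2.57 ± 1.13 in control and 3.30 ± 1.23 in KI for Hcar2, with edgeR adjusted p of 0.805 and 0.751. For the other receptors it lay between 0.21 and 0.76 in control and between 0.36 and 1.26 in KI, with SE from 0.448 to 0.877.

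Genes of the disease-associated state were mostly called higher with age, and homeostatic markers less often. Of 18 genes of disease-associated microglia, the plaque-associated state marked by Trem2, Cst7 and Itgax, 16 were called higher with age in control and 17 in KI, with median log2 fold changes of 1.68 and 1.86, where 3.72% and 5.66% of all tested genes were called higher. Of the 8 homeostatic markers, 2 in control and 4 in KI were called higher and none lower, against the same shares of all tested genes. Their medians were 0.41 and 0.48, and 7 of the 8 were above 0 in each genotype, as were 49.0% and 49.3% of all tested genes. The median over all tested genes was -0.0034 in control and -0.0031 in KI. Neither list is independent evidence about the receptors, since the libraries are the same.

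Markers of other cells that can carry these receptors were given the same look. Among all tested genes, 3.72% in control and 5.66% in KI were called higher with age, and 0.357% and 2.41% lower. Lists this short can hold 0 calls at such shares. Border macrophage markers, of which all 8 were tested, had 0 called and medians of -0.18 and -0.11, and their summed level ran from 14.1 to 33.6 CPM at 3 months and from 16.3 to 32.2 CPM at 10 months. Of 6 monocyte markers 3 were tested, with none called in control and Ccr2 called lower in KI, and their sum ran from 23.5 to 33.4 CPM at 3 months and 23.01 to 33.2 CPM at 10 months. Most of that sum was Vcan, a matrix proteoglycan gene not specific to monocytes, with group means from 25.6 to 29.1 CPM, while the group means of Ccr2 ran from 0.280 to 0.612 CPM and those of Ly6c2 from 0.604 to 1.03 CPM. Neutrophil markers summed to 0.331 to 2.43 CPM at 3 months and 0.221 to 3.09 CPM at 10 months, with 0 of 3 tested called and at most 2 counts of Ly6g in any library. Of 7 T cell markers 2 were tested and 0 called, with sums of 6.58 to 11.8 CPM at 3 months and 7.48 to 13.7 CPM at 10 months, most of it Trbc2 and Cd4. Markers too low to test had higher means at 10 months: Cd8a was at 0.0278 and 0.108 CPM at 3 and 10 months in control and at 0.0257 and 0.145 CPM in KI, and Cd3e at 0.0213 and 0.0699 CPM in control and 0.0507 and 0.113 CPM in KI. These rest on at most 12 counts of Cd8a and 10 of Cd3e in any library.

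B cell markers were the lymphoid list with a call, 1 of 3 tested, where 3.72% of all tested genes in control and 5.66% in KI were called higher. Ighm, the immunoglobulin heavy chain gene, was called higher with age in both genotypes (log2 fold changes 0.63 ± 0.16 and 0.98 ± 0.16, edgeR adjusted p 0.0234 and 0.000308). The summed B cell markers ran from 21.2 to 40.5 CPM at 3 months and from 36.3 to 62.8 CPM at 10 months. Most of that sum was Ighm, with group means from 27.8 to 54.7 CPM, so it mainly follows this gene. The group means of Cd79a ran from 0.275 to 0.441 CPM and those of Cd79b from 0.164 to 0.311 CPM. The other tested members were not called: Cd79a differed by -0.0010 ± 0.35 and -0.69 ± 0.36 and Cd79b by 0.57 ± 0.44 and 0.49 ± 0.41. The defining genes Ms4a1 and Pax5 had at most 6 and 5 counts in any library. The part of B cells in the level of Gpr183 and Cnr2, which B cells also express, was not tested beyond these values.

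Genotype comparisons asked whether the Abca7 substitution was accompanied by other receptor levels at the same age. No receptor was called at either age, where 0.0255% of all genes were called at 3 months and 0.0612% at 10 months. The libraries of control and KI overlapped for all 5 receptors at both ages, whereas 0.657% of all genes at 3 months and 1.49% at 10 months did not overlap. At 3 months the log2 differences, KI minus control, were -0.36 ± 0.66 for Hcar2, -0.31 ± 0.25 for Gpr84, -0.15 ± 0.16 for Gpr183, -0.33 ± 0.30 for Cnr2 and -0.0021 ± 0.14 for P2ry6 (edgeR adjusted p of 1.0 each). For Hcar2 the sign turned, to 0.51, without control replicate 6. Markers of adjoining tissue also differed at 3 months. Thalamus markers had a median log2 difference, KI minus control, of 0.76 and choroid plexus markers of 0.93, with 0 of 7 and 0 of 8 called. Shox2 ran from 1 to 203 counts in control and from 84 to 387 in KI. The part of this in the receptor values was not tested.

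At 10 months the mean level of Hcar2 was 3.40 ± 1.59 CPM in KI libraries against 2.33 ± 0.393 CPM in controls (SD, n = 5), a log2 difference of 0.54 ± 0.32 with a 95% interval from -0.15 to 1.23 (edgeR adjusted p 0.721). Without KI replicate 5 that difference was 0.23. Gpr183 differed by 0.27 ± 0.14 with an interval from -0.04 to 0.57 (edgeR adjusted p 0.677). It was 0.15 without control replicate 6, its lowest library. Cnr2 was at 1.45 ± 0.276 and 1.26 ± 0.354 CPM (KI and control) and differed by 0.20 ± 0.23 (interval -0.29 to 0.69, edgeR adjusted p 0.898). That value was 0.10 without KI replicate 6 and 0.33 without control replicate 10. P2ry6 was at 3.08 ± 0.196 and 2.73 ± 0.438 CPM and differed by 0.17 ± 0.13 (interval -0.11 to 0.45, edgeR adjusted p 0.805). Gpr84 was at 2.15 ± 0.457 and 2.21 ± 0.632 CPM and differed by -0.04 ± 0.20 (interval -0.48 to 0.39, edgeR adjusted p 0.980). The sign for Gpr84 turned, to between 0.04 and 0.09, without control replicate 9 or 10 or KI replicate 4. A p that misses the threshold does not show equal levels: the intervals for Hcar2 and Cnr2 still hold differences of 1.23 and 0.69 on the log2 scale.

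The microglial reference genes and the disease-associated genes had 0 calls between genotypes at 10 months as well, where 0.0612% of all tested genes were called. The median log2 differences of these lists were 0.12 and 0.37. Choroid plexus markers were lower in KI at that age, with a median log2 difference of -0.87 and 0 of 8 called. Their part in the receptor values was not tested.

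The test of whether age differences depended on genotype called none of the receptors, and 0% of all genes (0 of 19623 in edgeR, 883 at an unadjusted p under 0.05, 4 called by DESeq2 and 3 by limma-voom). The difference between the age effects, KI minus control, was 0.90 ± 0.74 for Hcar2, 0.27 ± 0.32 for Gpr84, 0.42 ± 0.21 for Gpr183, 0.53 ± 0.38 for Cnr2 and 0.17 ± 0.19 for P2ry6 (edgeR adjusted p of 0.999 each). For Hcar2 the interval ran from -0.67 to 2.47, and without control replicate 6 at 3 months the value was 0.03. All 5 values were above 0, and the same 20 libraries underlie them all. Thalamus and choroid plexus markers had interaction medians of -0.65 and -1.73, with 0 called. Their part in the receptor values was not tested.

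**Figure D3:**
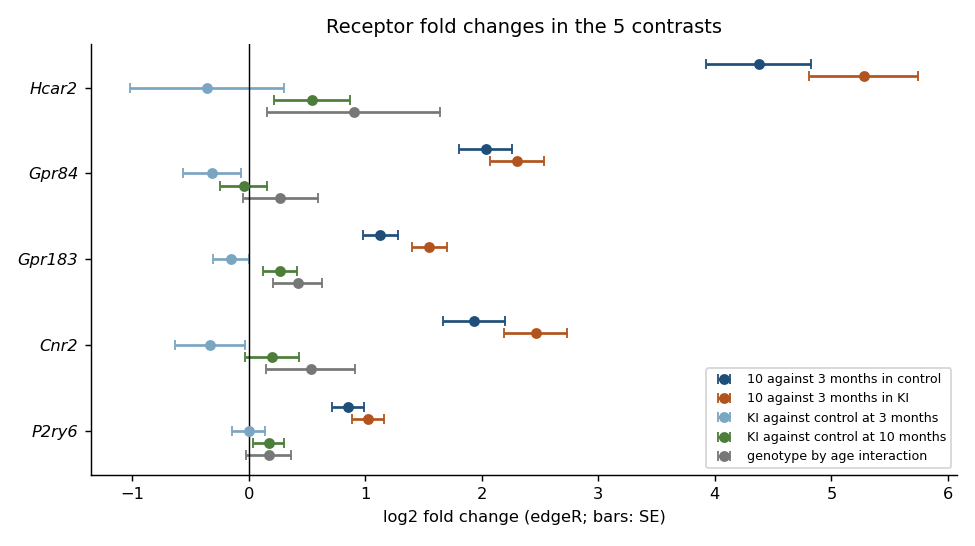
Log2 fold change of each receptor (horizontal axis, edgeR, bars for the SE) in the 2 age comparisons, the 2 genotype comparisons and the genotype by age interaction. The age values run from 0.85 to 5.28, and the genotype values lie between -0.36 and 0.54.

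Of 7 oxysterol enzymes, 1 in the ligand pathway of Gpr183 was called higher with age in each genotype. The share called higher among all tested genes was 3.72% in control and 5.66% in KI. Ch25h, which makes the precursor of the Gpr183 ligand, was called higher with age in both genotypes, by 2.59 ± 0.28 in control and 3.27 ± 0.28 in KI on the log2 scale (edgeR adjusted p 1.69e-06 and 6.04e-08). It was at 0.234, 0.168, 0.202, 0.201 and 0.114 CPM in control and 0.165, 0.103, 0.141, 0.203 and 0.174 CPM in KI at 3 months. At 10 months it was at 0.662, 0.984, 1.05, 1.22 and 1.72 CPM in control and 1.28, 1.32, 2.38, 1.17 and 1.58 CPM in KI, so that the ages did not overlap. Of all tested genes, 4.56% in control and 5.34% in KI had every 10 month library above every 3 month one. The other 6 oxysterol enzymes were not called in either age comparison. Among them Cyp7b1, which completes the ligand, differed by 0.11 ± 0.12 and 0.08 ± 0.12, and Hsd3b7, which removes it, by -0.06 ± 0.10 and 0.01 ± 0.10.

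Cyp7b1 was at 11.7 ± 1.25 CPM in control and 12.8 ± 1.98 CPM in KI at 3 months, and at 12.7 ± 0.754 and 13.5 ± 2.90 CPM at 10 months. The median of the oxysterol enzymes was -0.06 in control and 0.08 in KI. The highest Ch25h library was KI replicate 5 at 10 months, which was also the highest for Hcar2.

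Of 10 endocannabinoid genes, Naaa, which hydrolyses fatty acid ethanolamides, was called higher with age in control (0.25 ± 0.07, edgeR adjusted p 0.0442) and Abhd12, a monoacylglycerol and lysophosphatidylserine lipase, in KI (0.24 ± 0.05, edgeR adjusted p 0.00476). The other members were not called, and the list's medians were 0.0013 and 0.02. Among all tested genes, 3.72% in control and 5.66% in KI were called higher, so 1 call per genotype is not read as a result about the pathway. Naaa was not called in KI, nor Abhd12 in control. The genotype by age interaction called 0 members, so these calls do not show a difference between genotypes. Cnr1 differed by -0.17 ± 0.08 and -0.15 ± 0.08. Its level, not scaled per length, was 196 ± 18.7 CPM in control at 3 months and 173 ± 18.6 CPM in control at 10 months.

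Enzymes and carriers of the ligands of Hcar2 and Gpr84 were mostly not called, where 3.72% of all tested genes in control and 5.66% in KI were called higher. In lists this short, 0 or 1 call is not read as a result about the pathway. Of 9 ketone body genes, Bdh2, a dehydrogenase of the pathway, was called higher in control (0.59 ± 0.16, edgeR adjusted p 0.0310) and none was called in KI, with medians of -0.01 and -0.02. Bdh2 in KI differed by 0.02, and the difference between genotypes was not called. Of 10 enzymes of medium-chain and other fatty acid oxidation, Acadl, an acyl-CoA dehydrogenase, was called higher in control (0.29 ± 0.08, edgeR adjusted p 0.0381) and none in KI, with medians of 0.14 and 0.08. No member of the 4 ligand lists was called between genotypes at either age, where 0.0255% of all tested genes were called at 3 months and 0.0612% at 10 months.

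Among other nucleotide and adenosine receptors and ectoenzymes, 17 of 18 were tested, 4 were called higher with age in control and 5 in KI, and none lower, against 3.72% and 5.66% called higher of all tested genes. P2ry13, an ADP receptor of microglia, differed by 0.77 ± 0.08 in control and 0.84 ± 0.08 in KI. Adora3, the A3 adenosine receptor, differed by 0.71 ± 0.19 and 1.04 ± 0.19. Entpd1, the ectoenzyme that degrades ATP, differed by 0.55 ± 0.10 and 0.51 ± 0.10, and P2rx7, an ATP-gated channel, by 0.41 ± 0.07 and 0.33 ± 0.07. P2rx4, another ATP-gated channel, was called in KI (0.33 ± 0.07). P2ry12, the process-guiding ADP receptor also on the homeostatic list, differed by 0.33 ± 0.11 and 0.36 ± 0.11 (edgeR adjusted p 0.146 and 0.0566). The list's medians were 0.02 and 0.17.

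Among 23 other metabolite and lipid receptors, 13 were tested, and 3 in control and 4 in KI were called higher with age (3.72% and 5.66% of all tested genes), with medians of 0.20 and 0.18. Gpr65, a proton-sensing receptor, was at 0.155 ± 0.107 and 0.309 ± 0.125 CPM in control and KI at 3 months and at 1.39 ± 0.164 and 1.62 ± 0.184 CPM at 10 months. Its log2 fold changes were 3.11 ± 0.31 and 2.38 ± 0.28. Ptafr, the receptor of platelet-activating factor, differed by 0.98 ± 0.15 and 0.90 ± 0.15. Gpr34, a lysophosphatidylserine receptor, differed by 0.96 ± 0.19 and 1.15 ± 0.19. S1pr3, a sphingosine phosphate receptor, was called in KI (0.35 ± 0.10). The other 10 receptors were not tested for low counts, among them the fatty acid receptors Ffar1, Ffar2, Ffar3 and Ffar4 and the succinate receptor Sucnr1, none of which had more than 8 counts in any library.

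**Figure D4:**
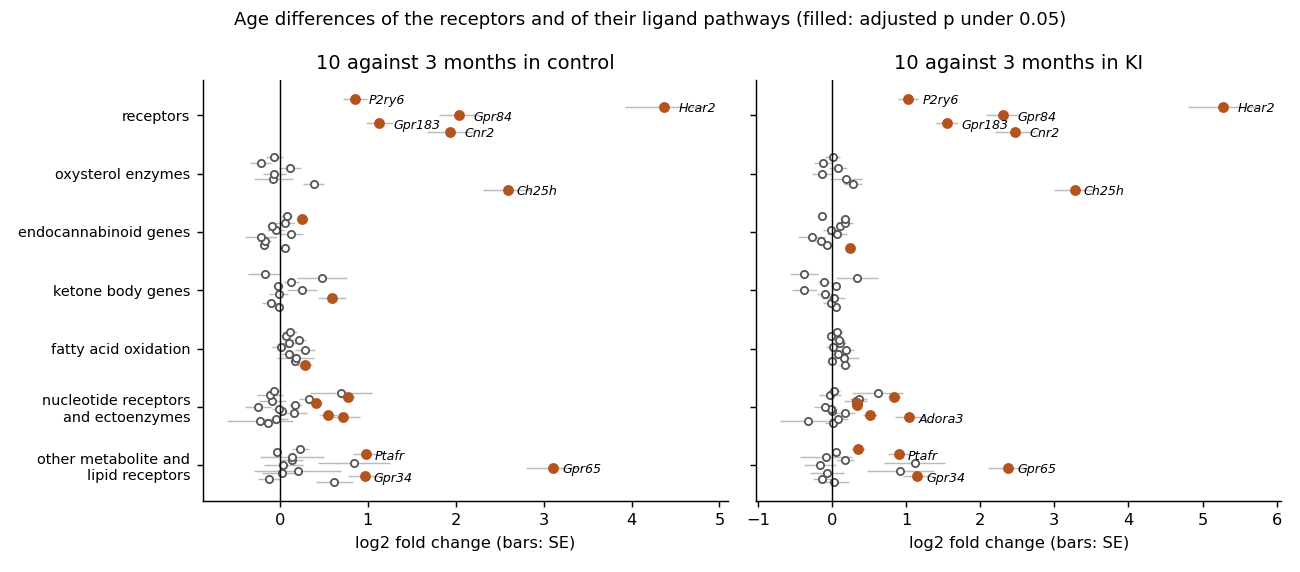
Log2 fold change between 10 and 3 months (horizontal axes, bars for the SE) of the receptors and of the members of 6 gene lists, in control on the left and KI on the right, with filled points for edgeR adjusted p under 0.05. Ch25h at 2.59 and 3.27 and Gpr65 at 3.11 and 2.38 stand far from the other list members.

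The genes whose log2 CPM followed each receptor most closely over the 20 libraries were sought among 15456 genes with a mean of at least 1 CPM. These correlations are a description, since all libraries share the difference between ages, their depth and the tissue. For Hcar2 they were Cst7, Mpeg1, Tifab, Itgax and Gm29094 (Pearson r from 0.966 to 0.969), of which Cst7 and Itgax are on the disease-associated list, as are Trem2, Clec7a and Ctsd among the genes that follow. For Gpr84 they included Arl11, Rasal3, C1qb and Hvcn1 (0.949 to 0.963), where C1qb is a complement chain and Hvcn1 a proton channel. Gpr183 was followed by Pik3cg, Ptgs1, Tifab, Trem2 and Cx3cr1 (0.963 to 0.975).

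Cnr2 was followed by Arl11, Clec7a, C3ar1, Runx1 and Ly9 (0.942 to 0.962), and P2ry6 by Pld4, Tmem176b, Ctsd, Tmem106a and Capg (0.953 to 0.958). Tifab stood on the lists of both Hcar2 and Gpr183, and Arl11 on those of both Gpr84 and Cnr2. Between the receptors themselves, r over the libraries ran from 0.841 for Hcar2 with P2ry6 to 0.937 for Hcar2 with Gpr183.

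Within groups the receptors followed each other far less. For deviations from the group means, r between pairs of receptors ran from -0.25 for Hcar2 with P2ry6 to 0.47 for Hcar2 with Gpr183. With the microglial reference it ran from 0.24 for Cnr2 to 0.45 for Gpr183. For Hcar2 the log2 level relative to that reference spread most at 3 months, where few reads were counted. Its SD was 1.13 in control and 1.65 in KI at 3 months, against 0.34 and 0.50 at 10 months. The value of KI replicate 6 at 3 months, with a count of 0, is set by the prior count. How much of each r with Hcar2 comes from counting error was not tested. The deviations of Hcar2 were followed most closely by Cav1, Gm14443, Gm14305, Mpeg1 and 4930447M23Rik (0.761 to 0.787), and those of Gpr84 by Fcrls, 1110002J07Rik, Ldb3, Clcn4-2 and Hsd17b11 (0.661 to 0.830). Fcrls is a homeostatic microglia marker. Those of Gpr183 were followed by Cxcl12, Pik3cg, 5430435G22Rik, A630001G21Rik and Glipr2 (0.7105 to 0.762). Those of Cnr2 were followed by Fam160a2, Nhlrc2, Tgm4, Itpr2 and Lss (0.771 to 0.800), and those of P2ry6 by Pld2, Gm27976, Ehd4, Fam117a and Pld4 (0.737 to 0.754). Mpeg1 for Hcar2, Pik3cg for Gpr183 and Pld4 for P2ry6 stood on both lists of their receptor. Both lists come from the same libraries, so this is not a second observation. The named genes were the closest of 15456 over 20 libraries, a search that can give high r without any relation.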

How the data were processed

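Per the labels' protocols, total RNA of 20 cortex samples was isolated by TRIzol and RNeasy columns, with DNase, for Illumina sequencing. Raw gene counts, not normalized, were deposited by the authors as a single table with gene lengths. The submitters' processing notes give mm10 as the build. No aligner, counting program, strand setting or annotation release is given in the sources used here.

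Testing used the method of edgeR 4.0.16 (R 4.3.3) after filterByExpr and TMM scaling (factors 0.972 to 1.03), a robust quasi-likelihood F test over 4 group means of all 20 libraries (16 residual degrees of freedom), in 5 contrasts, with Benjamini-Hochberg adjustment over 19623 genes and calls at 0.05. SE came from the same model, and 95% intervals from the SE at 16 degrees of freedom. Log2 CPM had a prior count of 0.5. Replicates differed beyond counting error (chi-square per degree of freedom 10.9 to 125).

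The receptors and the 22 gene lists were chosen with earlier results of these data known. The genes named are the receptors, up to 4 called members of smallest p per list, and the 5 genes of closest pattern on each scale, with genes that overlap a receptor and defining markers at or near 0. Of the lists not described with the results, G protein genes are under the closing observations. Neuron markers had 0 called with age in control and Gad1 lower in KI, oligodendrocyte markers 0 and 0, and endothelial markers 0 and 2 lower. Astrocyte markers had 1 higher in both (Gfap), choroid plexus markers 0 and 0, thalamus markers 1 and 6 lower, and erythrocyte markers 0 and 2 higher. Among all tested genes, 3.72% in control and 5.66% in KI were called higher, and 0.357% and 2.41% lower. Cnr1, Cyp7b1, Hsd3b7 and P2ry12, the called marker genes, the genes given as examples of a list and the fifth called nucleotide gene were named after their values were seen. Some genes that the rule would name are not reported here.

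The alternatives tried were DESeq2 1.42.0, limma-voom (limma 3.58.1), RLE scaling, testing without a filter or from a mean of 1 CPM, only the compared libraries, a replicate block and leaving out each library. A microglial covariate and leaving out 2 doubted libraries together were added after seeing the data.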

Additional observations from a re-analysis of the deposited data

How the results depend on the processing

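All 5 receptors stayed called in both age comparisons, and 0 in the others, under RLE scaling, no low-count filter, DESeq2, limma-voom, only the compared libraries, the replicate block, without the 2 doubted libraries (KI replicate 5 at 10 months and KI replicate 3 at 3 months) and without each library in turn. The exceptions are the minimum mean of 1 CPM, which left Cnr2 untested and called the other 4, only the compared libraries, which left Hcar2 untested between genotypes at 3 months (0 of 4 called) and was not run for the interaction, and the microglial covariate, which called 0 receptors and 0 genes with age in either genotype. Counts of all genes moved more: DESeq2 called 12 genes between genotypes at 3 months (5 in edgeR), 59 at 10 months (12) and 4 in the interaction (0). Limma-voom called 1254 and 3027 genes with age in control and KI (799 and 1582), 12 and 75 between genotypes at 3 and 10 months, and 3 in the interaction. With only the compared libraries 958 genes were called with age in KI and 7 between genotypes at 10 months.

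Leaving out each library in turn gave 633 to 742 genes with age in control, 1117 to 1670 with age in KI, 4 to 5 between genotypes at 3 months, 7 to 14 at 10 months and 0 in the interaction, with 5 receptors called in each age comparison and 0 in the others. The 7 came without control replicate 6, 9 or 10 or KI replicate 3 at 10 months.

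A shared replicate number did not mark pairs: 4 of 18 such pairs had a correlation over 0.1, and 1 library of 20 was closest to its own number. With the replicate block 4 genes were called between genotypes at 10 months, and the log2 difference there became -0.21 for Hcar2 and 0.29 for Gpr84. Control libraries were numbered 6 to 10 and KI libraries 3 to 7, so only numbers 6 and 7 occurred in both genotypes. With the block, the genotype comparisons therefore rest mainly on those numbers and say little about the other libraries. P2ry6 at 3 months, at -0.0021, turned to 0.12 with the block, 0.0014 with RLE, 0.0055 with no filter, 0.0044 with DESeq2, 0.072 with limma-voom and 0.0061 without the doubted libraries, and ran from -0.066 to 0.077 with each library left out. Likewise Gpr84 at 10 months ran from -0.14 to 0.085 and Hcar2 at 3 months from -0.72 to 0.51. P2ry6 relative to microglial genes turned to 0.039 and 0.20 (control, KI) against Csf1r alone and to 0.39 and 0.38 against homeostatic markers. With age the 10-gene reference differed by 1.25 and 1.31, and the homeostatic markers had medians of 0.41 and 0.48. P2ry6 itself differed by 0.85 and 1.02, so the sign follows from the size of the age difference in the reference. Why the references differed by other amounts, and what turned the other signs, was not tested. Of the 5 closest genes on each list, 0 to 3 were the same by Spearman correlation. At 3 months Hcar2 held at most 16 counts per library, which limits its fold changes.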

Other observations

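Genes that carry or end the signals of these receptors were followed as well. Of 16 G protein, arrestin and RGS genes, 15 were tested and 3 were called higher with age in both genotypes, with none lower, where 3.72% of all tested genes in control and 5.66% in KI were called higher. Rgs1, a brake on chemoattractant receptor signalling in immune cells, differed by 1.96 ± 0.41 in control and 2.83 ± 0.42 in KI on the log2 scale (edgeR adjusted p 0.00485 and 9.54e-05). It was at 0.149 ± 0.132 and 0.116 ± 0.0501 CPM in control and KI at 3 months and at 0.610 ± 0.177 and 0.827 ± 0.241 CPM at 10 months (SD, n = 5). Gna15, a G protein subunit of blood lineage cells, differed by 1.08 ± 0.18 and 0.73 ± 0.18, and Rgs10, an RGS protein of microglia, by 0.35 ± 0.08 and 0.56 ± 0.08. The list's medians were 0.07 and 0.08, and 0 of its members were called between genotypes at either age. Among all tested genes that share was 0.0255% at 3 months and 0.0612% at 10 months.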
